A study of Mus musculus with 2 samples.

Results

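Genes of central nervous system myelin, 9 of the 45578 genes in the table, were examined in ribosome footprints from mouse brain polysomes. They are *Mbp*, *Mobp*, *Cldn11*, *Cnp*, *Mag*, *Mog*, *Opalin*, *Ugt8a* and *Myrf*, chosen by symbol, taken as the transcript name without its trailing number, and they held 45 of the 109463 transcripts listed. The 2 libraries came from control brains at postnatal day 5, each described as 1 brain, on the FVB strain background. Their genotype was Smn+/-; SMN2tg/0, of the Taiwanese mouse line, so every control was heterozygous for the *Smn* deletion and carried the human *SMN2* transgene, and no mouse without these alleles was compared here. They formed a single group of biological replicates 1 and 2, so the design allows a comparison between the replicates only. A ribosome footprint is the fragment of mRNA that a ribosome shields from nuclease, and its count reflects how many ribosomes were on the transcripts of a gene.

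Myelin of the central nervous system is made by oligodendrocytes, which wrap axons in a compacted membrane. Precursor cells leave the cell cycle, switch on the regulator MYRF together with SOX10, and then produce large amounts of a few membrane proteins and the galactolipids of the sheath. In rodents this happens after birth and runs roughly from the hindbrain and spinal cord towards the forebrain, so a whole brain in the first postnatal week holds many precursors and few myelinating cells. Whole-brain footprints cannot separate fewer oligodendrocytes from fewer ribosomes on the myelin mRNAs of each cell.

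The libraries held 1866831 footprints in replicate 1 and 5261878 in replicate 2, a 2.82-fold difference in depth. Levels are given as CPM (counts per 1000000 footprints of the library) with Clopper-Pearson 95% intervals, which cover counting error only. As a check of the brain label, none of 12 neuronal genes and none of 10 astrocyte genes was at 0 in either library, and the neuronal genes summed to 7357 and 5836 CPM in replicates 1 and 2.

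A gene's count here is the sum over its listed transcripts, 16 for *Mbp*, 4 for *Cnp* and 1 for *Cldn11*, and how a fragment shared by several transcripts was counted is not given in the sources used here. If it was counted on each of them, the sums of genes with many transcripts and their density ranks would be inflated. The p-values below would then be too small. Pairs of coding transcripts of 1 gene with the same coding length, total lengths within 5% and at least 50 footprints together were compared within each library. Their counts were equal in 3.15% of 349 pairs in replicate 1 and in 2.90% of 656 pairs in replicate 2. The squared difference over the sum had a median of 0.490 and 0.351; fragments each placed at random on 1 of the pair would give 0.455, and fragments counted on both would give values near 0. Repeated counting in a part of the genes was not tested.

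Upstream sequences of the members are shown first, because MYRF, the product of 1 member, is a transcription factor of the myelin programme. Upstream stretches of RefSeq (GRCm38.p6) entries were used for 7 of the 9 members, all but *Mbp* and *Myrf*. Of these, 3 are printed: *Mag* and *Mobp*, whose footprints differed between the replicates, and *Cnp*, whose footprints did not pass the test. Each line is the 250 bases before an annotated start, 5′ to 3′ on the strand of the gene. Capitals mark matches, on either strand, to the MYRF motif (spelled CTGGCAC, with CTGGTAC as its variant) or to the SOX motif (spelled ACAAAG, with ACAATG as its variant). The letters TATAAA were searched as well and had no match in the 7 genes. The stretches are chr7:30914923-30915172 (minus strand, the outermost of 3 *Mag* starts), chr9:120149492-120149741 (plus strand, *Mobp*) and chr11:100574689-100574938 (plus strand, *Cnp*).
Mag: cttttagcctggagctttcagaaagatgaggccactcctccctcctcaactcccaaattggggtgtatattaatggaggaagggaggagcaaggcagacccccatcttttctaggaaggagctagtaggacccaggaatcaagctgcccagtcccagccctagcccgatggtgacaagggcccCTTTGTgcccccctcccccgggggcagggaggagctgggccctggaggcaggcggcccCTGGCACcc
Mobp: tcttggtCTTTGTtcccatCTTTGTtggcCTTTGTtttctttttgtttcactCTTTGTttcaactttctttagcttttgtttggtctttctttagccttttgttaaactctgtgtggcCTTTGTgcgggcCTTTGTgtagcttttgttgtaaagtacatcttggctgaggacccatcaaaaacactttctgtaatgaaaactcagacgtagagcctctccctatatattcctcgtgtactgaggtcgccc
Cnp: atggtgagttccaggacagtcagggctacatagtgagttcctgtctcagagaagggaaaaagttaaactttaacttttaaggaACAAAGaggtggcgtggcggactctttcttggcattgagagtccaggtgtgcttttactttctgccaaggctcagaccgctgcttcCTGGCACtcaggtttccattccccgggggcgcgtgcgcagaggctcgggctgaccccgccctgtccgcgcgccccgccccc

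The *Mag* and *Cnp* stretches printed each held 1 MYRF match and 1 SOX match, and the *Mobp* stretch held 6 SOX matches and no MYRF match. Of the other *Mag* starts, the next one shares both matches, its stretch overlapping the printed one, and the third has neither. The *Mog* stretch had 1 MYRF match, the *Opalin* stretch 1 SOX match, and those of *Cldn11* and *Ugt8a* none of either. Among 32851 RefSeq stretches of the same length, 5.93% held the MYRF motif, 25.2% the SOX motif and 12.4% TATAAA. These matches describe letters in a window next to the start; binding was not measured.

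The members together took 0.0609% of the footprints in replicate 1 (interval 0.0574 to 0.0645) and 0.0891% in replicate 2 (0.0866 to 0.0917), a mean of 0.0750% ± 0.0199 (SD, n = 2). In these sums *Mbp* and *Cnp* supplied most of them. *Mbp* made up 37.9% of the members' footprints in replicate 1 (35.1 to 40.8) and 46.0% in replicate 2 (44.6 to 47.5), and *Cnp* made up 34.7% (32.0 to 37.6) and 26.6% (25.3 to 27.9). On the highest transcript alone the order was different, with 52 and 179 footprints for *Mbp* against 166 and 452 for *Cnp* and 124 and 315 for *Cldn11*. *Ugt8a*, *Myrf*, *Mobp* and *Mog* were each the smaller contributors, at most 3.90% in a library, and *Opalin* contributed none.

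**Figure D1:**
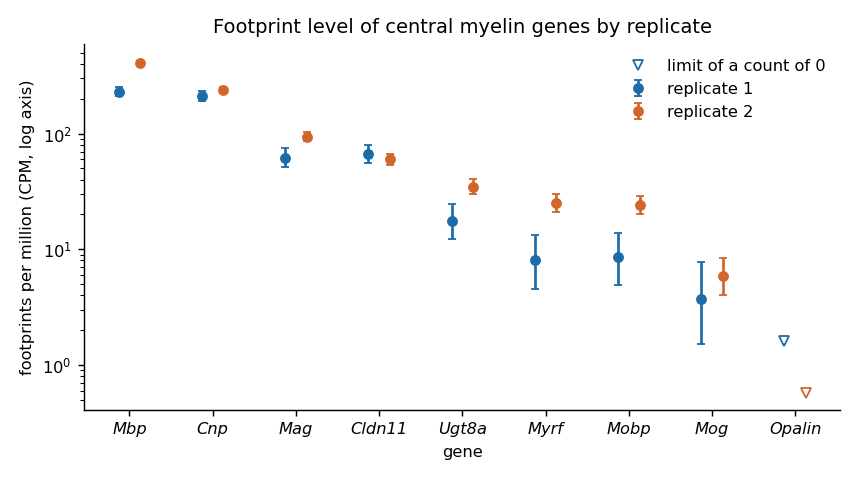
Footprint level of each gene in CPM (log axis) in replicate 1 (blue) and replicate 2 (orange), with 95% Clopper-Pearson intervals; open triangles are the level that a count of 0 allows. *Mbp* lies at 231 and 410.1 CPM, *Cnp* at 212 and 237 CPM, and *Opalin* has no footprint in either library.

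The structural proteins of the sheath come first. *Mbp* (ENSMUSG00000041607) encodes myelin basic protein, which holds the cytoplasmic faces of the membrane together and is made locally from mRNA carried into the processes. It had 431 footprints in replicate 1 and 2158 in replicate 2, or 231 CPM (209.6 to 254) and 410.1 CPM (393 to 428). The mean over replicates was 320.5 ± 127 CPM (SD, n = 2). The intervals were far apart, with replicate 2 the higher. *Mobp* (ENSMUSG00000032517), a small basic protein of compact myelin, had 16 and 127 footprints. These were 8.57 CPM (4.90 to 13.9) and 24.1 CPM (20.1 to 28.7), in the same order. These intervals did not overlap either.

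*Cldn11* (ENSMUSG00000037625) encodes the claudin that forms the tight junction strands of the sheath. It had 124 and 315 footprints, or 66.4 CPM (55.2 to 79.2) and 59.9 CPM (53.4 to 66.9), and was the member whose level was lower in replicate 2, within overlapping intervals. *Cnp* (ENSMUSG00000006782) encodes a phosphodiesterase of the non-compacted cytoplasmic channels and appears early in the lineage. It had 395 and 1247 footprints, or 212 CPM (191 to 234) and 237 CPM (224 to 251), again with overlapping intervals. *Cldn11* and *Cnp* were the members with the smallest spread relative to their mean, at 63.1 ± 4.64 and 224 ± 17.96 CPM (SD, n = 2).

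The proteins of the outer and inner surfaces come next. *Mag* (ENSMUSG00000036634), a sialic acid-binding adhesion protein of the membrane next to the axon, had 116 and 494 footprints, or 62.1 CPM (51.3 to 74.5) and 93.9 CPM (85.8 to 103). Replicate 2 was higher with no overlap. *Mog* (ENSMUSG00000076439), an immunoglobulin-like protein of the outermost lamella that is known as a late marker of maturation, had 7 and 31 footprints, or 3.75 CPM (1.51 to 7.73) and 5.89 CPM (4.00 to 8.36). At this depth its levels could not be told apart.

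*Opalin* (ENSMUSG00000050121), a glycoprotein of maturing oligodendrocytes, had 0 footprints in both libraries. With a floor of 3 counts, a count of 0 stands for a limit of 1.61 CPM in the shallower library and 0.570 CPM in the deeper one, and the upper ends of its Clopper-Pearson intervals were 1.98 and 0.701 CPM. Its single listed transcript has a coding sequence of 432 nucleotides. A count of 0 in both libraries was found for 41.5% of the 8441 genes whose single transcript is protein coding and for 22.9% of the 21874 genes with any protein coding transcript, so it is a common value in this table. The levels of *Mog*, the lowest member with footprints, were 3.75 and 5.89 CPM, above these limits.

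*Ugt8a* (ENSMUSG00000032854) encodes the enzyme that adds galactose to ceramide, the step that makes the galactolipids of myelin. It had 33 and 183 footprints, or 17.7 CPM (12.2 to 24.8) and 34.8 CPM (29.9 to 40.2), higher in replicate 2 with no overlap. *Myrf* (ENSMUSG00000036098) encodes the membrane-bound transcription factor that starts the myelin programme. It had 15 and 133 footprints, or 8.04 CPM (4.50 to 13.3) and 25.3 CPM (21.2 to 30.0), and the libraries were again separate.

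Levels of different genes are comparable only per length, so footprints were divided by the longest annotated coding sequence of each gene and by the depth of the library, as CPM per kilobase. On this scale of coding density *Mbp* had 307 in replicate 1 and 545 in replicate 2, a mean of 426 ± 168 (SD, n = 2). *Cnp* followed at 178 ± 14.2, *Cldn11* at 101 ± 7.43, *Mag* at 41.4 ± 11.9, *Mobp* at 31.9 ± 21.5, *Ugt8a* at 16.1 ± 7.44, *Mog* at 6.48 ± 2.04 and *Myrf* at 4.87 ± 3.57. The order was the same in both libraries. By the ranges over the libraries, *Mag* and *Mobp*, *Mobp* and *Ugt8a*, and *Mog* and *Myrf* did not differ beyond their spread; the other neighbours did.

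Among all coding genes whose mean count reached 10, the density of *Mbp* was at percentile 97.9, that of *Cnp* at 91.8 and that of *Cldn11* at 84.7. *Mag* was at percentile 65.4, *Mobp* at 58.6, *Ugt8a* at 39.6, *Mog* at 18.5 and *Myrf* at 13.8. The 8 genes with footprints thus lay between percentiles 13.8 and 97.9, with the regulator *Myrf* and the surface protein *Mog* at the lower end. With the counts of protein coding transcripts alone, the density of *Cnp* was 60.5 and fell below that of *Cldn11*. With the count of the highest coding transcript alone over its own coding sequence, *Cldn11* came first at 101, *Cnp* had 60.5 and *Mbp* 41.1, so the first places of *Mbp* and *Cnp* and their percentiles rest on the sum over transcripts. Per kilobase of the whole highest transcript, *Myrf* (4.58) came before *Mog* (2.83).

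**Figure D2:**
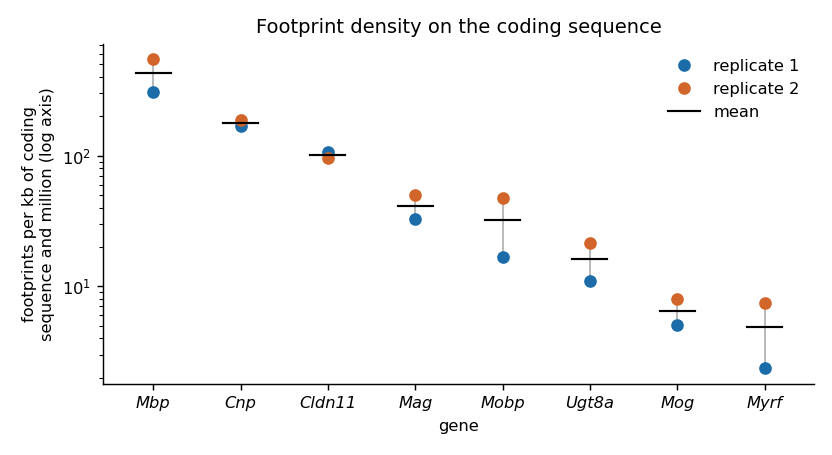
Coding density in CPM per kilobase of the longest coding sequence (log axis) for the 8 genes with footprints, in replicate 1 (blue) and replicate 2 (orange), with a bar at the mean. *Mbp* is highest at a mean of 426 and *Myrf* lowest at 4.87, and the order is the same in both libraries.

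The replicates were then compared gene by gene. The counts of a gene were set against the ratio of effective library sizes in a two-sided exact binomial test, with TMM scaling (trimmed mean of M values) and Benjamini-Hochberg adjustment over all 16427 genes whose mean count reached 10. Genes with an adjusted p under 0.05 were called. Of the 9 members 8 were tested and *Opalin* was not. Of these 8, 5 were called, all 5 higher in replicate 2, against a background of 17.4% of all tested genes called and 5.95% called higher in replicate 2. The share called was larger where there were more footprints per nucleotide of transcript, from 2.31% in the lowest of 10 equal bins of genes to 50.0% in the highest, which held *Mbp* and *Cnp*. In that highest bin 10.04% of genes were called higher in replicate 2, and in the bin that held *Mobp* and *Ugt8a* the share was 3.59%.

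*Myrf* had the largest difference, a log2 ratio of replicate 2 over replicate 1 of 1.53 (95% interval 0.75 to 2.40), and its adjusted p by the exact test was 0.000225. *Mobp* had a log2 ratio of 1.37 (0.61 to 2.22) and an exact adjusted p of 0.00116. *Ugt8a* had a log2 ratio of 0.85 (0.31 to 1.43) and an exact adjusted p of 0.00990. *Mbp*, with far more footprints, had a log2 ratio of 0.70 (0.55 to 0.86) and an exact adjusted p of 3.75e-20. *Mag* had a log2 ratio of 0.47 (0.17 to 0.77) and an exact adjusted p of 0.0114. Among all tested genes these log2 ratios lay at percentiles 98.5 for *Myrf*, 98.1 for *Mobp*, 93.9 for *Ugt8a*, 91.6 for *Mbp* and 83.9 for *Mag*.

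The other tested members did not pass. The log2 ratio of *Cnp* was 0.04 (-0.13 to 0.20), so a difference of more than 1.15-fold upwards or below 0.916-fold lay outside its interval. That of *Cldn11* was -0.28 (-0.58 to 0.04), and that of *Mog* was 0.53 (-0.69 to 1.95), an interval that holds the ratio of every other tested member. Their exact adjusted p-values were 0.863, 0.240 and 0.710. Of the 8, 7 had a log2 ratio above 0; the median was 0.61, and over all genes tested it was 0.01.

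**Figure D3:**
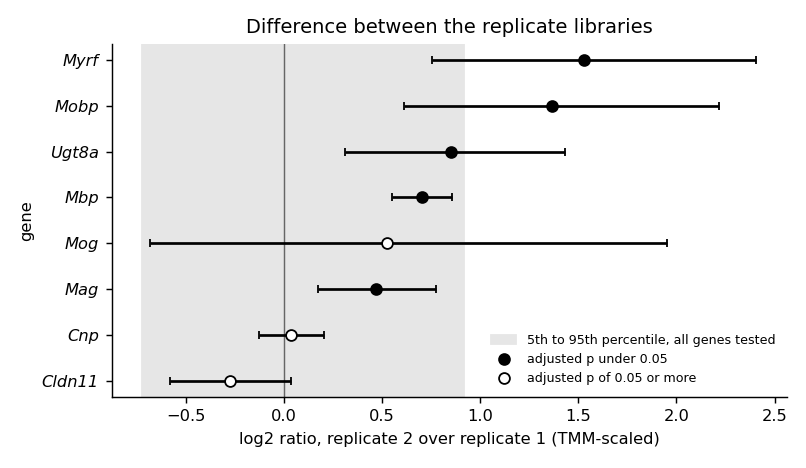
Log2 ratio of replicate 2 over replicate 1 with its 95% interval for the 8 tested genes; filled points have an adjusted p under 0.05, and the grey band spans the 5th to 95th percentile of all tested genes. *Myrf* (1.53) and *Mobp* (1.37) lie to the right of the band, and *Cnp* (0.04) and *Cldn11* (-0.28) lie near 0.

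The exact binomial test sets the difference of 2 brains against counting noise alone. The spread between the brains was included through edgeR's exact test with a common dispersion (biological coefficient of variation 0.166, estimated from the same pair of libraries). The differences tested thus also set the dispersion, which lowers the number of calls, so few calls do not show that the brains were alike. In this test 0 of 8 members were called against 0.067% of all genes, and 3 members and 721 genes had an unadjusted p under 0.05. With the highest transcript of each gene in place of the sum, again 0 of 8 members passed the exact binomial test, against 9.41% of genes, and 0 members and 3000 genes had an unadjusted p under 0.05. The log2 ratios were smaller there as well: 0.24 for *Mbp* (exact adjusted p = 0.679), 0.38 for *Mag*, 0.55 for *Ugt8a*, 0.77 for *Mobp* and 1.17 for *Myrf*. The same 5 members were called with library totals (19% of genes called), DESeq2 size factors (17.4%), no count minimum (9.93%), protein coding transcripts alone (18.2%) and the trend of the ratio with footprint density removed (17.4%). With a mean count of at least 100, 3 of 5 tested were called, against 34% of genes.

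Ratios between members within a library do not depend on how the libraries were scaled. There were 1.09 *Mbp* footprints per *Cnp* footprint in replicate 1 and 1.73 in replicate 2. The number of *Mbp* footprints per *Cldn11* footprint was 3.48 and 6.85. For *Myrf* and *Cnp* it was 0.0380 and 0.107, and for *Mobp* and *Cnp* 0.0405 and 0.102. *Cldn11* made up 10.9% of the members' footprints in replicate 1 (interval 9.15 to 12.9) and 6.72% in replicate 2 (6.02 to 7.47), while *Mag* made up 10.2% (8.50 to 12.1) and 10.5% (9.67 to 11.5). *Myrf* made up 1.32% (0.740 to 2.17) and 2.84% (2.38 to 3.35), and *Mobp* 1.41% (0.806 to 2.28) and 2.71% (2.26 to 3.21). By these intervals the library with more myelin footprints held a larger part of them on *Mbp* and *Myrf* and a smaller part on *Cnp* and *Cldn11*. The intervals of *Mag* and *Mobp* overlapped. All these ratios and parts use sums over transcripts. The highest coding transcript had 52 and 179 footprints for *Mbp* and 127 and 446 for *Cnp*, so the shift between *Mbp* and *Cnp* is not seen on these transcripts alone.

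Footprints were also compared by transcript. Transcripts of 1 gene share most of their sequence, so a transcript's count is not the output of that isoform. Transcripts have TMM factors of their own, which lower their log2 ratios by 0.19 relative to library totals. Of the 45 transcripts 37 reached a mean count of 10 and were tested, and 33 of these 37 had a log2 ratio above 0. Of the 37, 15 were transcripts of *Mbp*, so the 33 are not separate results. The share above 0 over all tested transcripts is not given here. The exact binomial test over all 43655 tested transcripts called 5 of the 37, all higher in replicate 2. Over all tested transcripts 6.15% were called and 0.662% called higher. Mobp-002 (1 and 41 footprints) and Ugt8a-003 (9 and 78), both called, reached the mean count of 10 only through replicate 2. For transcripts with few footprints in replicate 1 the filter thus favoured this direction, among those called and among the 33. With library totals 8 were called (4.35% of all), with DESeq2 size factors 5 (6.3%), with no count minimum 4 of 44 (2.86%), and with a mean count of at least 100 it was 0 of 7 (31.2%), 1 of them with an unadjusted exact p under 0.05.

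*Mbp* had 16 listed transcripts, 14 of them protein coding, and 15 were tested. All 15 had a positive log2 ratio, from 0.10 for Mbp-001 to 1.67 for Mbp-205. Mbp-205, with a coding sequence of 555 nucleotides, had 15 and 153 footprints and an exact adjusted p of 5.25e-05. Mbp-011 had 23 and 163 footprints with a log2 ratio of 1.14, and Mbp-008 had 26 and 162 with a log2 ratio of 0.96. Mbp-001, which has the longest coding sequence of the gene (753 nucleotides), had the most footprints, 52 and 179. It is thus the highest transcript of *Mbp* in the settings above, and its coding length is the divisor of the gene's density. Which form of the protein each *Mbp* transcript encodes was not examined. Mbp-001 held 12.1% of the gene's footprints in replicate 1 and 8.29% in replicate 2, and this share did not pass Fisher's exact test (adjusted p = 0.785). In that test, chosen after the values were seen and adjusted over 37390 transcripts, 0 of 36 transcripts of the members were called, 4 had an unadjusted p under 0.05, and 25 transcripts (0.0669%) were called in all.

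The counts of *Mbp* transcripts were also set against their annotated length. Mbp-008, which is annotated as 638 nucleotides of coding sequence with no untranslated part, had 188 footprints over both libraries. Mbp-204, at 2108 nucleotides of which 510 are coding, had 202. Mbp-003, at 4797 nucleotides of which 588 are coding, had 140. Mbp-004, whose coding sequence is 168 nucleotides within 1685, had 14. The first 3 of these have coding lengths of 510 to 638 nucleotides and differ more in untranslated length than in coding length. Their annotated 5′ untranslated lengths are 0 for Mbp-008, 117 for Mbp-204 and 274 for Mbp-003. Their coding sequences were not compared, so a similar coding length does not mean the same coding sequence.

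For *Cnp* the count went with transcript length. Its single protein coding transcript, Cnp-001, had 127 and 446 footprints, 32.2% and 35.8% of the gene. The processed transcript Cnp-002, which has no annotated coding sequence, had 166 and 452. Over both libraries the 4 *Cnp* transcripts had 0.243, 0.213, 0.232 and 0.236 footprints per nucleotide, in the order Cnp-001 to Cnp-004, although their lengths ran from 322 to 2904 nucleotides. None of the 4 was called between the replicates, with log2 ratios from -0.24 to 0.13.

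**Figure D4:**
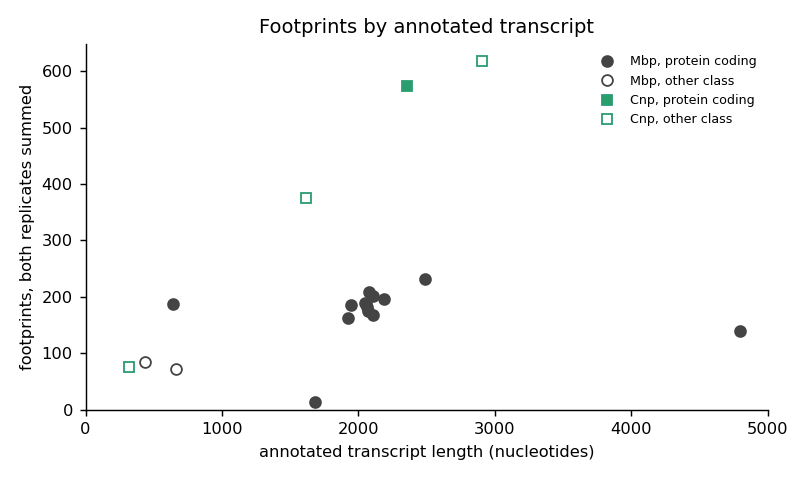
Footprints of both libraries summed against annotated length for the transcripts of *Mbp* (circles) and *Cnp* (squares); filled symbols are protein coding. *Cnp* counts rise with length, whereas *Mbp* transcripts of 638, 2108 and 4797 nucleotides have 188, 202 and 140 footprints.

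For the rest, Mobp-002 had 1 and 41 footprints with a log2 ratio of 3.68 (1.12 to 9.02), and Mobp-201 had 0 and 19 and was not tested. Both have a coding sequence of 246 nucleotides, while Mobp-001, with 513, had 8 and 40. Ugt8a-003 had 9 and 78 footprints and a log2 ratio of 1.44, and Ugt8a-001, which has the same coding length of 1626 nucleotides, had 17 and 73 and a log2 ratio of 0.42. Mobp-002 and Ugt8a-003 were called, and Mobp-001 and Ugt8a-001 were not. This is no difference shown between transcripts of a gene. The share of neither called transcript passed Fisher's exact test (adjusted p = 0.968 for Mobp-002). The log2 intervals of Ugt8a-003 (0.44 to 2.62) and Ugt8a-001 (-0.35 to 1.28) overlapped. Mag-201 and Mag-001, with identical coding length (1749 nucleotides), had 27 and 103 and 24 and 105 footprints. Mog-001 had 5 and 20, Myrf-001 had 5 and 33, and the lone *Cldn11* transcript carried the whole count of that gene. Protein coding transcripts took 70.8% of the members' footprints in replicate 1 (68.1 to 73.4) and 77.0% in replicate 2 (75.8 to 78.2); over all genes the shares were 76.3% and 74.8%. Processed transcripts, mostly those of *Cnp*, took 24.5% and 18.5%.

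Other genes of the lineage were taken from lists made by function. Of 20 other myelin genes 17 were tested, 11 had a log2 ratio above 0, and 1 was called, higher in replicate 2. Over all tested genes 17.4% were called and 5.95% called higher, and 8290 of 16427 had a log2 ratio above 0. *Sirt2*, a deacetylase of the sheath, had the highest level of the list at 205 ± 3.46 CPM (SD, n = 2) and a log2 ratio of -0.09. The median log2 ratio of the list was 0.34.

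Genes of earlier stages of the lineage were compared in the same way. Of 10 oligodendrocyte transcription factors 10 were tested and 4 were called, 3 lower and 1 higher in replicate 2, and the median log2 ratio was -0.39. *Olig2*, which specifies the lineage, had 87.8 and 49.98 CPM, with a log2 ratio of -0.94 (-1.23 to -0.65). *Olig1*, its neighbour in function, had a log2 ratio of -0.85, and *Sox10*, the partner of MYRF, had 55.7 and 44.1 CPM and a log2 ratio of -0.46 (-0.80 to -0.12). *Zeb2*, a repressor needed for maturation and also made in neurons, was the 1 called higher, at 0.43. Of 8 precursor genes 4 were called, all lower, with a median of -0.30. Over all tested genes 17.4% were called, and 1883 of 16427 were called lower. In the bin with most footprints per nucleotide 50.0% were called. Lower calls were also found in other cell types. Of 12 neuronal genes 8 were called lower and 1 higher, and of 10 astrocyte genes 4 lower and 0 higher. Microglial genes had 2 lower and 1 higher, endothelial genes 1 of each. *Pdgfra*, the growth factor receptor that marks precursors, had 165 and 178 CPM with a log2 ratio of -0.02 (-0.21 to 0.17). *C1ql1* had a log2 ratio of -0.86, *Gpr17* of -0.71 and *Cspg4* of -0.61. *Ptprz1*, a receptor phosphatase of precursors and radial glia, had the highest level of the precursor list at 931 ± 77.8 CPM and was not called. A log2 ratio of 0 here means the TMM centre, and with library totals every ratio is higher by 0.13, which takes *Pdgfra*, *Sirt2* and no called gene named here to the other side of 0.

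Genes that mark regions of the neuraxis differed between the same libraries. The 12 hindbrain Hox genes, transcription factors of the hindbrain and spinal cord, summed to 15 and 409 footprints, or 8.04 CPM (4.50 to 13.3) and 77.7 CPM (70.4 to 85.6). In replicate 1, 6 of the 12 were at 0; in replicate 2 none was. Of the 7 tested, 5 were called and all 5 were higher in replicate 2, against 17.4% of all tested genes called and 5.95% called higher. None of the 7 had more than 8 footprints in replicate 1, so each reached the mean count of 10 only through replicate 2. The filter thus favoured this direction, and the calls are no support separate from the sums. *Hoxa5* and *Hoxb5* had 0 footprints in replicate 1 and 89 and 88 in replicate 2, which is at least 10.5-fold and 10.4-fold higher in CPM against a floor of 3 counts in the library. Of 8 tested cerebellar granule cell genes 3 were called higher, with a median log2 ratio of 0.47 and a summed level of 551 and 715 CPM. Of 10 Purkinje cell genes 1 was called higher, *Pcp2* at 1.69, with a median of 0.23 and sums of 542 and 655 CPM. Of 10 forebrain genes 6 were called, all lower, with a median of -0.41 and sums of 1092 and 798 CPM. The lowest was *Nrgn* at -1.21. Replicate 2, the library with more footprints on *Mbp*, *Mag*, *Mobp*, *Ugt8a* and *Myrf*, was thus also the one with more Hox and granule cell footprints and fewer forebrain footprints, and the part of this in the myelin result was not tested.

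Genes of peripheral myelin were looked at as well, because Schwann cells also make some of the members. *Pmp22*, a membrane protein of Schwann cell myelin, had 44 and 235 footprints and a log2 ratio of 0.80 (0.33 to 1.29), with an exact adjusted p of 0.00483. *Pmp2* was at 0 in both libraries, and *Prx* and *Egr2* had at most 19 footprints in a library. The part of Schwann cell RNA in the counts of *Mbp*, *Mag* and *Cnp* was not tested. In CPM the ratio of replicate 2 over replicate 1 was 1.89 for *Pmp22*, above that of the members together. Neuronal genes gave a ratio of replicate 2 over replicate 1 of 0.793 in summed CPM, astrocyte genes 0.862, microglial genes 0.982 and endothelial genes 1.05. The central myelin genes gave 1.46, and 1.27 without *Mbp*. Cerebellar granule cell genes gave 1.30, Purkinje cell genes 1.21, hindbrain Hox genes 9.67 and forebrain genes 0.730. Without *Mbp* the members were thus no higher than the granule cell list.

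**Figure D5:**
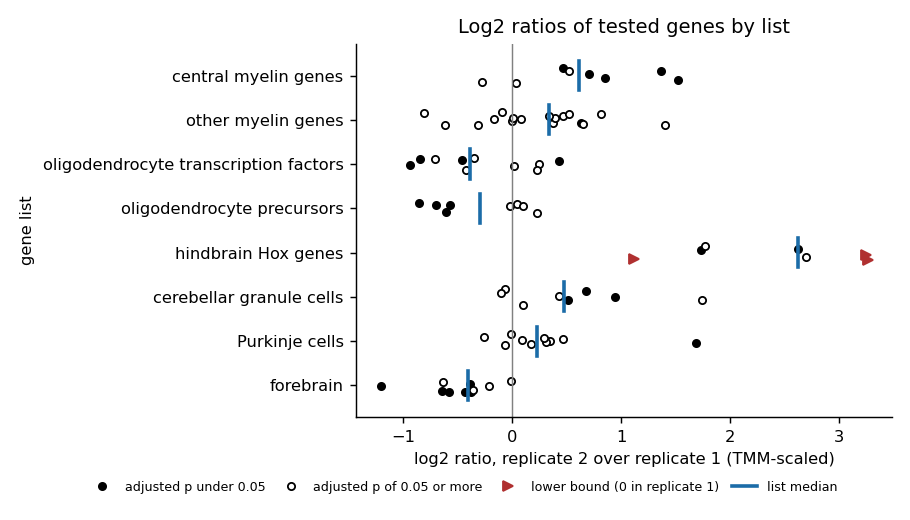
Log2 ratio of replicate 2 over replicate 1 for the tested genes of 8 lists. Filled points have an adjusted p under 0.05, open points do not, and blue bars are list medians. Red triangles are genes with 0 footprints in replicate 1, placed with that count set to 3. The median is 0.61 for the central myelin genes, -0.30 for precursor genes, 2.63 for hindbrain Hox genes and -0.41 for forebrain genes. The Hox genes shown reached the count minimum only through replicate 2.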

How the data were processed

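The authors deposited raw counts per transcript, 1 column per replicate, with annotated lengths. Per the labels' protocols, polysomal fractions were digested with RNase I and fragments of 25 to 35 nucleotides were sequenced. The submitters' processing notes name Trimmomatic 0.36, Bowtie2 2.2.6, SAMtools and build GRCm38.p4; annotation release, strand use and treatment of duplicates and shared fragments are not given in the sources used here. Counts of a gene's transcripts were summed. The exact binomial test used TMM factors from edgeR 4.0.16 (0.957 and 1.04), scipy 1.17.1 and a mean count of at least 10. TMM lowers gene log2 ratios by 0.13 and transcript log2 ratios by 0.19 relative to library totals. A quasi-likelihood fit was not possible with 1 group. Log2 ratios carry no prior count. For floored ratios and list medians a count of 0 was set to 3, which is not a confidence limit. Because PCR copies of 1 molecule were counted apart unless removed upstream, the intervals, limits for a count of 0 and p-values hold for counting error alone.

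The script was tested on simulated data. Members and lists were chosen with earlier results of these data known. All 9 members are named; of their transcripts, the highest of each gene and those called, with others chosen after their values were seen (the further *Cnp*, *Mbp*, *Mobp*, *Mag* and *Ugt8a* transcripts). From other lists at most 3 called genes of largest change, the most abundant gene, and *Olig2*, *Sox10* and *Pdgfra* were to be named, and some items are not reported here; *Hoxa5*, *Hoxb5*, *Pmp2*, *Prx* and *Egr2* were added for their counts. The motif search and the comparison of transcript pairs were chosen after values were seen. Alternatives were library totals, DESeq2 1.42.0 size factors, other count minimums, highest or coding transcripts, removal of the trend with density, and edgeR's exact test. Protein sequences were not used here, nor was any sequence of *Mbp*.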

Additional observations from a re-analysis of the deposited data

How the results depend on the processing

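Of the 5 called members, all 5 (the same genes) were called with library totals, DESeq2 size factors, no count minimum, coding transcripts alone and the density trend removed. With a mean count of at least 100, 3 of 5 tested were called, since *Mobp*, *Myrf* and *Mog* were left out. With the highest transcript per gene 0 of 8 were called and 1444 genes in all, and the log2 ratios of the 5 shrank, that of *Mbp* from 0.70 to 0.24; the cause was not tested. The log2 ratio of *Cnp* became -0.10 there, still uncalled. edgeR's exact test, with a dispersion set by the same pair of libraries, called 0 of 8 members and 11 genes. No other member changed direction in any setting. Among transcripts, 8 were called with library totals and 0 of 7 tested at a mean count of at least 100, in place of 5 of 37. The members' share of 0.0750% was 0.0438% over highest transcripts and 0.0429% without *Mbp*; the cause was not tested. Leaving out a replicate gave 0.0609% to 0.0891% for that share, a median coding density of 24.8 to 48.4 (36.6 with both, and 10.7 with the highest coding transcript alone, a setting chosen after seeing the data), and 70.8% to 77.0% on coding transcripts; no test is possible with 1 library. All genes called split as 34.2% higher in replicate 2 with TMM and 60.7% with library totals. No paired analysis was possible because both samples belong to 1 group. Depth limits *Mog* and *Opalin* most: 38 and 0 footprints in all.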
